A study of Macaca mulatta with 6 samples.

Results

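The miR-379/miR-656 cluster is the larger of the miRNA groups in the imprinted DLK1-DIO3 region, a long run of miRNA genes of which copies on the maternal chromosome are transcribed and copies on the paternal chromosome are silent. Its miRNAs are most abundant in brain and placenta, and in rat neurons the whole run is transcribed on neuronal activity. Each precursor hairpin is cut into a 5p and a 3p arm, and a mature miRNA finds its target mRNAs mainly through its seed, bases 2 to 8. In human and mouse brain, some adenosines of these precursors, those of the miR-376 family for example, are deaminated and then read as guanosine.

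Members were found by name alone: an entry of the deposited table was kept when its stem, under any species prefix, was among 35 miRNA names of the cluster. This gave 81 of 2046 entries, of which 65 carried a rhesus name (mml-) and 16 the name of another species. They came from 38 stems, with 37 entries named as 5p, 37 as 3p and 7 without an arm, and they held 80 distinct sequences. Of the 35 names 34 had an entry, and miR-1193 had none. In the RefSeq annotation of the rhesus assembly T2T-MMU8v2.0, used for names and order only, 36 miRNA genes lay from MIR379 to MIR656 on chromosome 7, and 33 of the 38 stems were matched to them. The stems miR-300, miR-323b, miR-496a, miR-655 and miR-1197 had no matched gene and were kept by name.

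Plasma small RNA came from 3 adult male rhesus monkeys, for which no genetic alteration is named, at baseline (before ischemia) and 3 h after a clot had been placed in the M1 segment of the right middle cerebral artery through a catheter, a model of ischemic stroke called MCAO (after ischemia). Each group had 3 libraries, 1 per monkey. The methods kept monkeys whose M1 segment was still occluded at angiography. The surgery was done under ketamine and propofol, so ischemia, anesthesia, surgery and time since baseline cannot be told apart in the libraries after ischemia.

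Total counts ran from 10745499 to 15548693 before and from 6036831 to 9737589 after ischemia. The deposited values are counts multiplied by a factor for each library, and 3 counts, taken here as the limit of detection, were worth 1.70 to 2.34 normalized counts before and 4.14 to 5.58 after ischemia. Plasma has no cells of its own. Markers of possible sources made up these ranges of the normalized total: red blood cell miRNAs 6.51% to 18.7% before and 13.1% to 32.9% after ischemia, platelet miRNAs 4.04% to 7.10% and 2.79% to 4.82%, leukocyte miRNAs 1.92% to 2.49% and 3.22% to 3.58%. Single markers did not all go with their sum. The red blood cell sum was mostly miR-486-5p, while miR-363-3p had 2368 to 2653 normalized counts before and 1605 to 2165 after ischemia. The platelet sum was mostly miR-223 and miR-126, while miR-197-3p had 1857 to 3401 before and 4943 to 8781 after ischemia. The largest leukocyte marker was miR-142-5p, while miR-142-3p had 4122 to 10371 before and 436 to 960 after ischemia. Brain markers held 0.116% to 0.274% before and 0.0795% to 0.114% after ischemia, mostly as miR-128, while miR-124-3p was listed at 0 in all libraries before ischemia and in replicate 3 after it. The liver marker miR-122-5p ranged from 0.146% to 1.36% and from 0.0651% to 1.82%. All 22 markers fixed for these lists were found, where 1 entry without a named arm stood for both arms of miR-144 and of miR-126, and 1 leukocyte entry was lower and 1 higher after ischemia by the test below. The part of these shifts in the results of the cluster was not tested. From plasma alone, a change in the number of source cells and a change in the RNA that each gave off cannot be told apart.

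The sequences below are those of the entries on which the results turn, as deposited, 5′ to 3′ with the seed in capitals. The genes matched to them lie on chromosome 7, while miR-323b and miR-300 had no matched gene. In the names, L and R mark a changed 5′ or 3′ end with the number of bases added or missing, and ss marks a substitution. Further on, prefix and suffix are left out where a miRNA had 1 tested entry. For miR-134-5p and miR-154-5p, which had a further tested entry each, the bare name stands for the rhesus one. The first set holds the 8 entries that passed the threshold, all of them lower after ischemia.
mml-miR-381-3p: tATACAAGggcaagctctctgt
mml-miR-410-3p: aATATAACacagatggcctgt
mml-miR-299-3p: tATGTGGGacggtaaaccgctt
mml-miR-1185-3p_L+2R+1: aATATACAgggggagactcttat
mml-miR-541-3p: tGGTGGGCacagaatccggact
mml-miR-376b-3p: aTCATAGAggaaaatccatgtt
rno-miR-544-5p_L+1: tCTTGTTAaaaagcagattct
mml-miR-544_1ss22CT: aTTCTGCAtttttagcaagttt

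The next set holds the 3 entries whose libraries after ischemia all lay above those before, with the other arms of miR-409 and miR-377, whose arms are compared further on.
mml-miR-409-5p: aGGTTACCcgagcaactttgcat
mml-miR-409-3p: gAATGTTGctcggtgaacccct
mml-miR-654-3p_R-2: tATGTCTGctgaccatcacc
mml-miR-377-5p: aGAGGTTGcccttggtgaattc
mml-miR-377-3p: aTCACACAaaggcaacttttgt

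Many members were alike in sequence. The seed GGTTGTC was shared by 4 entries of separate precursors, each the 5p arm.
mml-miR-323b-5p: aGGTTGTCcgtggtgagttcgca
mml-miR-410-5p: aGGTTGTCtgtgatgagttcg
mml-miR-494-5p: aGGTTGTCcgtgttgtcttctct
mml-miR-656-5p: aGGTTGTCtgtgaggtgttca
Other seeds common to more than 1 precursor were GGTGGGC in miR-541-3p and miR-654-5p, TCATACA in miR-485-3p and cja-miR-539_1ss21CT, TCATAGA in miR-376a-3p and miR-376b-3p, TGGTTGA in miR-380-5p and miR-758-5p, and ATGTAAC in miR-379-3p and miR-411-3p.

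For the comparison of single entries, log2(normalized count + 1) was fitted with limma for all 807 entries with 10 or more normalized counts in 3 libraries of the table, and the adjusted p is the Benjamini-Hochberg value over those 807. Fold changes are after against before ischemia on this log2 scale, which understates the change of rare entries. Of the 81 members 68 were tested. The other 13 were rare, with no library above 26.3 normalized counts. Among the 68, 3 reached the filter through the libraries before ischemia alone (miR-381-5p and both miR-544 entries) and so had to be lower after it. Same-numbered libraries were taken as the same monkey, since the methods name 3 monkeys sampled at both times and the labels share the numbers.

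After ischemia 8 of the 68 tested members were lower (11.8%) and 0 were higher at an adjusted p under 0.05 by limma. Over all tested entries 3.47% were lower and 1.98% higher. Both miR-544 entries are among the 8, and their direction was set by the filter. Without entries that reached the filter through 1 group alone, 6 of 65 members were lower (9.23%), against 3.07% of all such entries. The 6 include miR-376b-3p, which after ischemia reached 10 normalized counts in replicate 2 alone (11.5). At an unadjusted p under 0.05, 21 members were lower and 3 higher, where the shares over all entries were 12.5% and 9.79%. The libraries of the groups did not overlap for 26 members that were lower (38.2%, against 15.4% of all entries) and for 3 that were higher (4.41%, against 11.5%). The 21 and the 26 include the 3 members that reached the filter through the libraries before ischemia alone, whose direction it fixed. An unequal-variance test per entry on the normalized values, without adjustment, gave 18 lower and 3 higher, against 7.06% and 3.72% of all entries.

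The median log2 fold change was −0.40 over the tested members and −0.06 over all tested entries, and 64.7% of the members but 52.5% of all entries lay below 0. The members below 0 include the 3 whose direction was fixed by the filter. In the remaining DLK1-DIO3 miRNAs, on the side of RTL1, 2 of 19 tested entries were lower and 0 higher, with a median of −0.68. The entries outside the region had 18 lower and 16 higher of 720 and a median of −0.00. With each library scaled to the same total, the median over all entries moved to −0.43 and that of the members to −0.84. These medians are a description of the lists, and the difference between them was not tested.

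The member that lost the most normalized counts was miR-381-3p. Its normalized counts were 47338, 63620 and 58844 in replicates 1, 2 and 3 before ischemia and 3429, 4647 and 6663 after it. All libraries after ischemia lay far below all libraries before, and the means were 56601 ± 8369 and 4913 ± 1634 (SD, n = 3 each). The log2 fold change was −3.57 ± 0.323 (SE, adjusted p = 0.000985, limma). Its 5p arm had 31.9, 35.0 and 12.4 normalized counts before and 6.89, 0 and 0 after ischemia, and its log2 fold change of −3.66 ± 1.20 did not pass (adjusted p = 0.125, limma).

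miR-410-3p was lower as well. It had 6412, 7136 and 8567 normalized counts before and 1015, 1142 and 1679 after ischemia, again without overlap. The log2 fold change was −2.55 ± 0.322 (SE, adjusted p = 0.00380, limma).

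miR-299-3p was among the 10 most abundant members. Its values were 19905, 16696 and 16649 normalized counts before and 2643, 4087 and 3922 after ischemia, and the groups lay apart. The log2 fold change was −2.34 ± 0.296 (SE, adjusted p = 0.00380, limma). For miR-1185-3p the values were 3382, 3686 and 2423 before and 441, 844 and 812 after ischemia. All of the latter were below the former, with a log2 fold change of −2.21 ± 0.378 (SE, adjusted p = 0.0121, limma).

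These 4 entries, the 3p arms of miR-381, miR-410, miR-299 and miR-1185, passed the threshold whichever of the 6 libraries was left out. The other 4 did not. The number of members called lower was 4 without any of the libraries before ischemia or without replicate 1 after ischemia, and with replicate 3 or replicate 2 after ischemia left out it was 5 or 8.

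**Figure D1:**
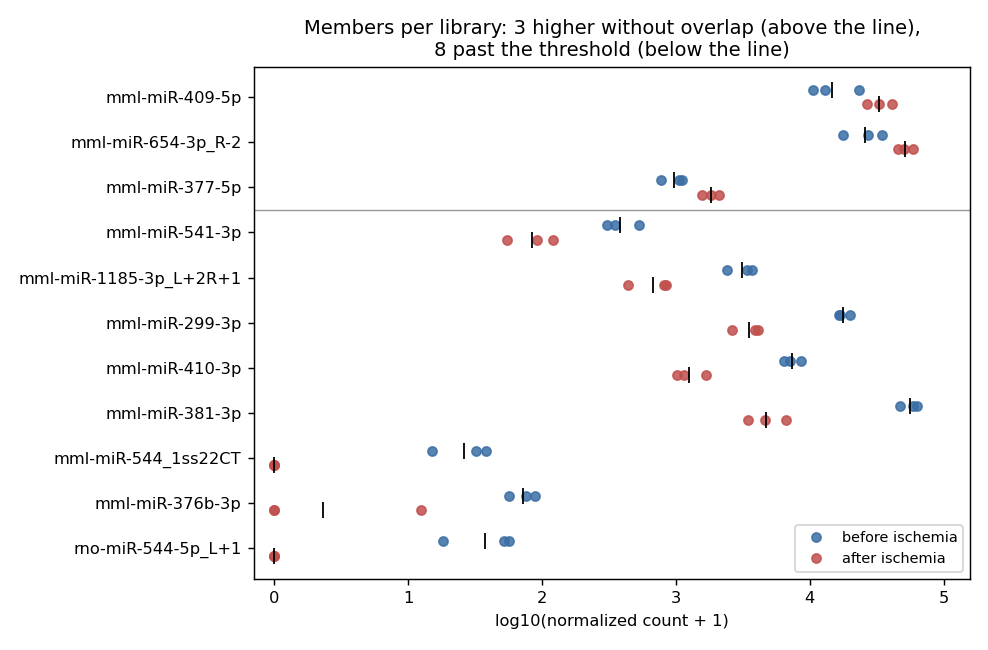
Normalized counts of 11 members in each library, on a scale of log10(normalized count + 1), with blue points for the 3 libraries before and red points for the 3 after ischemia; black ticks are group means. The 3 members above the line had all libraries after ischemia higher without passing the threshold, and in the 8 below it every library after ischemia was lower, miR-381-3p from 47338 or more to 6663 or less.

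miR-541-3p had 349.8, 303 and 532 normalized counts before and 53.8, 119 and 91.1 after ischemia. The groups did not overlap, and the log2 fold change was −2.18 ± 0.471 (SE, adjusted p = 0.0347, limma). The call held without replicate 2 after ischemia and was lost without any other library, with an adjusted p of up to 0.117.

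miR-376b-3p belongs to a family of near-identical miRNAs. It had 74.8, 87.4 and 55.4 normalized counts before ischemia, and after it 0, 11.5 and 0. The log2 fold change was −4.96 ± 1.13 (SE, adjusted p = 0.0401, limma), and without any library other than replicate 2 after ischemia the call was lost (adjusted p up to 0.221).

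miR-544 gave the entries with the fewest counts among the 8. rno-miR-544-5p_L+1 had 17.1, 51.1 and 55.4 and mml-miR-544_1ss22CT 14.0, 37.0 and 31.1 normalized counts before ischemia, and both were listed at 0 in every library after ischemia. A floor of 3 counts in each library after ischemia has a mean of 4.52 normalized counts. The mean before ischemia was 9.12 times this floor for the first entry and 6.05 times for the second. These are ratios of means, and replicate 1 before ischemia lay nearest to the floor. Since the filter fixed their direction, the test of these entries adds nothing to the values. Their adjusted p of 0.0270 and 0.0443 (limma) became 0.0522 and 0.0801 with the monkey as a block. Leaving out replicate 1 after ischemia gave 0.0522 and 0.0712, and leaving out replicate 3 of that group gave 0.0508 for the latter entry. Without any library before ischemia they no longer reached the filter.

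No member passed the threshold in the other direction, but 3 were higher in every library after ischemia than in any before. miR-409-5p had 23487, 12886 and 10602 normalized counts before and 26564, 41019 and 33155 after ischemia, with replicate 1 before ischemia close to replicate 1 after it. The log2 fold change was 1.16 ± 0.362 (SE, adjusted p = 0.113, limma), and without replicate 1 before ischemia the entry passed (log2 fold change 1.50, adjusted p = 0.0475).

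miR-654-3p, the second most abundant member, had 34675, 17852 and 27336 before and 45938, 50501 and 58605 normalized counts after ischemia. Its log2 fold change of 1.002 ± 0.315 (SE) had an adjusted p of 0.114 (limma). miR-377-5p had 1102, 770 and 1058 before and 1579, 1841 and 2103 after ischemia. All of its libraries after ischemia were higher, with a log2 fold change of 0.92 ± 0.323 (SE, adjusted p = 0.147, limma).

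The most abundant member, miR-409-3p, which lowers fibrinogen output in human liver cells, showed no such parting. It had 99454, 83517 and 71209 normalized counts before and 88977, 175920 and 101783 after ischemia, and only replicate 2 after ischemia lay far above the rest. The log2 fold change was 0.48 ± 0.327 (SE, adjusted p = 0.424, limma). miR-382-5p and miR-543-3p, with log2 fold changes of −0.51 and −0.59, and miR-379-5p, with −0.33, overlapped between the groups and did not pass (adjusted p = 0.390, 0.335 and 0.672, limma).

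miR-134-5p, which limits dendritic spine size in rat neurons through the kinase LIMK1, had 18152, 14613 and 13758 normalized counts before and 13825, 25229 and 17684 after ischemia. The groups overlapped, and the log2 fold change of 0.25 ± 0.312 (SE, adjusted p = 0.694, limma) turned to −0.14 with the library total as scale. Its rarer further entry dno-miR-134-5p_R+1_1ss22CT, which differs at the 3′ end, overlapped too, with a log2 fold change of −0.35 (adjusted p = 0.696, limma). miR-494-3p had 12266, 12846 and 15171 before and 9630, 14242 and 23892 after ischemia, from the lowest to the highest of the 6 values within the libraries after ischemia. Its log2 fold change was 0.15 (adjusted p = 0.870, limma), and −0.24 with the library total as scale. Among other members with roles in rat or mouse neurons, miR-485-5p had a log2 fold change of −0.29, miR-495-3p of −0.28 and miR-329-3p of −0.46, none past the threshold (adjusted p = 0.691, 0.675 and 0.545, limma).

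Further members lay below all libraries before ischemia without passing the threshold by limma. miR-154-5p had 854, 974 and 778 before and 154, 372 and 333 normalized counts after ischemia (log2 fold change −1.69, adjusted p = 0.0665). hsa-miR-1197 had 250.1, 226 and 228 before and 86.9, 73.1 and 81.8 after ischemia (−1.53, adjusted p = 0.0708). cja-miR-539_1ss21CT had 1043, 1608 and 1424 before and 352, 591 and 580.2 after ischemia (−1.43, adjusted p = 0.0708). With the monkey as a block, this miR-539 entry passed (adjusted p = 0.0494). The entry mml-miR-539, of another sequence, overlapped between the groups, with a log2 fold change of 0.07 (adjusted p = 0.960, limma).

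With the library total as scale, miR-154-5p, miR-1197, the cja-miR-539_1ss21CT entry and miR-382-3p passed too, so 12 members were lower (17.6%), against 5.66% of all entries on that scale. The 12 include both miR-544 entries, whose direction was fixed by the filter. On that scale no share was computed without entries that reached the filter through 1 group alone. At the deposited scale the log2 fold change of miR-382-3p was −0.99 (adjusted p = 0.109). miR-369-3p, which in human cells binds the TNF mRNA, had 12065, 10850 and 12196 before and 3741, 6827 and 6382 normalized counts after ischemia. Its log2 fold change was −1.10 (adjusted p = 0.0934, limma), that of miR-369-5p −0.97 (adjusted p = 0.157) and that of miR-655-3p −1.38 (adjusted p = 0.124).

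Of the same kind, cpo-miR-154-5p_R+1, the miR-154-5p sequence with a base more, had 49.9, 62.5 and 53.7 normalized counts before and 0, 14.1 and 18.6 after ischemia (log2 fold change −3.07, adjusted p = 0.159, limma). miR-380-5p, which represses p53 in mouse stem cells and neuroblastoma, had 63.1, 55.1 and 49.2 before and 8.27, 15.4 and 24.2 after ischemia (−1.85, adjusted p = 0.140). miR-411-5p, miR-1185-5p and miR-323a-5p had log2 fold changes of −0.90, −1.03 and −0.77 and adjusted p of 0.163, 0.243 and 0.482. In each of these 5 entries the groups did not overlap. Over the 68 tested members 32 were lower (47.1%) and 8 higher (11.8%) in 3 of 3 monkeys, against 24.3% and 22.6% of all tested entries. The 32 include the 3 members whose direction was fixed by the filter.

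**Figure D2:**
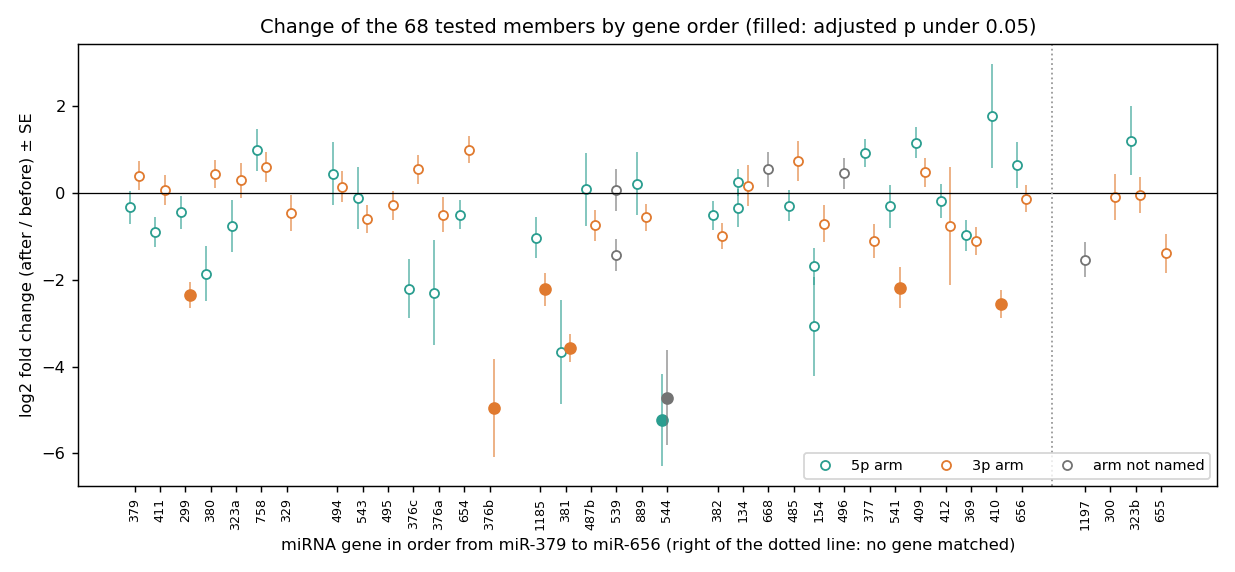
Log2 fold change after against before ischemia with its SE for the 68 tested members, placed by the order of their genes from miR-379 to miR-656 and coloured by arm; entries right of the dotted line had no matched gene. Filled points passed the threshold; they run from −2.18 for miR-541-3p to −5.23 for rno-miR-544-5p_L+1, and lie beside members near 0.

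The plot along the gene order showed no steady trend from end to end: Spearman's correlation of gene order and fold change was 0.02 over 63 tested members with a matched gene. In the first 12 genes the median log2 fold change was −0.20 over 20 tested entries, with 1 called lower. In the middle 12 it was −0.99 over 19 entries, with 15 below 0 and 5 called lower, among them both miR-544 entries. The 19 and the 15 include all 3 members whose direction was fixed by the filter, miR-381-5p and both miR-544 entries. The median of the middle 12 was not computed without them. In the last 12 genes it was −0.24 over 24 entries, with 2 called lower. Neighbours differed widely. The genes of miR-376b, whose 3p arm had a log2 fold change of −4.96, and of miR-654, whose 3p arm had 1.002, lie next to each other.

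The cluster held 5.37%, 3.91% and 4.27% of the normalized total before and 2.11%, 4.26% and 3.40% after ischemia. Replicate 2 after ischemia lay within the range before it. The mean was 4.52 ± 0.761% before and 3.26 ± 1.09% after ischemia (SD, n = 3 each). The difference of −1.26 percentage points did not pass an exact two-sided permutation test over the libraries (p = 0.2; the smallest p that 3 against 3 allow is 0.1). The test took the libraries as independent and left out the pairing by monkey. Without replicate 1 after ischemia the difference was −0.684. The RTL1 side had 1.76 ± 0.654% before and 1.12 ± 0.325% after ischemia (SD, n = 3 each, exact permutation p = 0.3).

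Within the cluster the makeup differed more. miR-409-3p took 22.1%, 20.8% and 19.0% of the cluster's total before and 31.5%, 36.6% and 26.6% after ischemia. miR-381-3p, the second largest share before ischemia, took 10.5%, 15.9% and 15.7% before and 1.21%, 0.967% and 1.74% after it. These are shares of a whole, so a gain of some members goes with a loss of others.

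Among the other abundant members, miR-654-3p went from 6.48 ± 1.77% to 14.0 ± 3.09%, miR-409-5p from 3.75 ± 1.29% to 8.87 ± 0.461% and miR-299-3p from 4.34 ± 0.155% to 0.937 ± 0.0882% (SD, n = 3 each). The shares of these 3 did not overlap between the groups, while those of miR-379-5p and miR-494-3p did. The 10 most abundant members together held 74.0 ± 1.21% before and 79.6 ± 2.21% after ischemia (SD, n = 3 each).

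**Figure D3:**
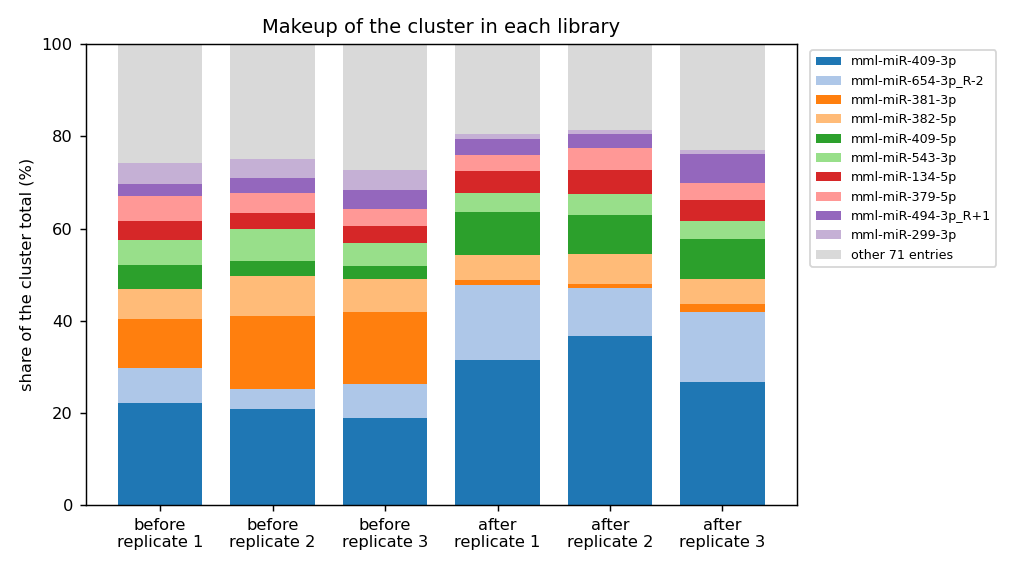
Share of the cluster's normalized total (%, bars from 0 to 100) taken in each of the 6 libraries by the 10 most abundant members and by the other 71 entries. The segment of miR-381-3p shrinks from 10.5% or more before to 1.74% or less after ischemia, and those of miR-409-3p and miR-654-3p are wider in every library after ischemia.

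The arms of a precursor are made from the same hairpin, and their ratio within a library depends on the scale between libraries only through the pseudocount, which matters for arms near 0. The log2 ratio of 5p to 3p, with a pseudocount of 1, was tested with limma for 161 precursors of the table with both arms measured, 27 of them in the cluster. It differed between the groups for 9 of these 27, for 42 of all 161 (26.1%) and for 33 of the 134 outside the cluster. A changed arm ratio was thus not particular to the cluster, and the difference between these shares was not tested. The groups did not overlap for 12 of the 27 and for 64 of the 161. Among the 9, the ratio moved toward 5p in 5 (miR-299, miR-377, miR-410, miR-541 and miR-1185) and toward 3p in 4 (miR-376c, miR-654, miR-380 and miR-411).

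For miR-377, known to raise fibronectin in human and mouse mesangial cells, the more abundant arm changed. The log2 ratio was 0.19, −1.14 and −0.55 before and 1.88, 1.23 and 1.48 after ischemia, a change of 2.03 ± 0.393 (SE, adjusted p = 0.01002, limma). miR-377-3p had 967, 1696 and 1548 normalized counts before and 429, 785 and 751 after ischemia (log2 fold change −1.11, adjusted p = 0.153), and the 5p arm moved the other way, as given above. The 3p arm was the larger in 2 of 3 libraries before ischemia, and the 5p arm in all 3 after it.

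For miR-299 the log2 ratio was −3.94, −4.27 and −3.75 before and −2.03, −2.51 and −1.73 after ischemia, without overlap. It changed by 1.90 ± 0.328 (SE, adjusted p = 0.00657, limma). Its 5p arm had 1296, 862 and 1237 normalized counts before and 648, 715 and 1185 after ischemia, a log2 fold change of −0.44 (adjusted p = 0.518), whereas the 3p arm fell as given above.

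miR-376c, which in human cells targets the activin receptor ALK7, had a log2 ratio of −6.07, −4.67 and −5.26 before and −8.54, −7.97 and −7.73 after ischemia. The change was −2.75 ± 0.566 (SE, adjusted p = 0.0119, limma). The 3p arm had 3328, 3188 and 2871 normalized counts before and 3188, 6026 and 4960 after ischemia, with overlap, and the 5p arm had 48.7, 125 and 73.8 before and 7.58, 23.1 and 22.3 after ischemia. The log2 fold changes of the arms were 0.55 (adjusted p = 0.366) and −2.20 (adjusted p = 0.113).

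The ratios of these 3 precursors, miR-299, miR-377 and miR-376c, kept their calls whichever of the 6 libraries was left out. The others changed by −1.50 for miR-654 (adjusted p = 0.0148, limma), −2.29 for miR-380 (0.0183), 4.33 for miR-410 (0.0216), 1.88 for miR-541 (0.0300), 1.18 for miR-1185 (0.0449) and −0.97 for miR-411 (0.0493), and each lost its call without at least 1 library. miR-1185 lost it without any of them. The count of 9 became 3 without replicate 2 before ischemia or replicate 1 after it, 4 without replicate 3 of either group and 11 with the monkey as a block, which added miR-409 and miR-485 (adjusted p = 0.0420 each).

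The ratio of miR-410 rests on few counts of its 5p arm, from 0 to 20 per library. The other arms of these precursors that are not given above had log2 fold changes of −0.50 (miR-654-5p), 0.44 (miR-380-3p), −0.31 (miR-541-5p) and 0.07 (miR-411-3p), none past the threshold, and that of miR-411-3p turned to −0.32 with the library total as scale. The 5p arm was the more abundant in 7 of the 27 precursors by the mean before ischemia and in 8 after it.

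**Figure D4:**
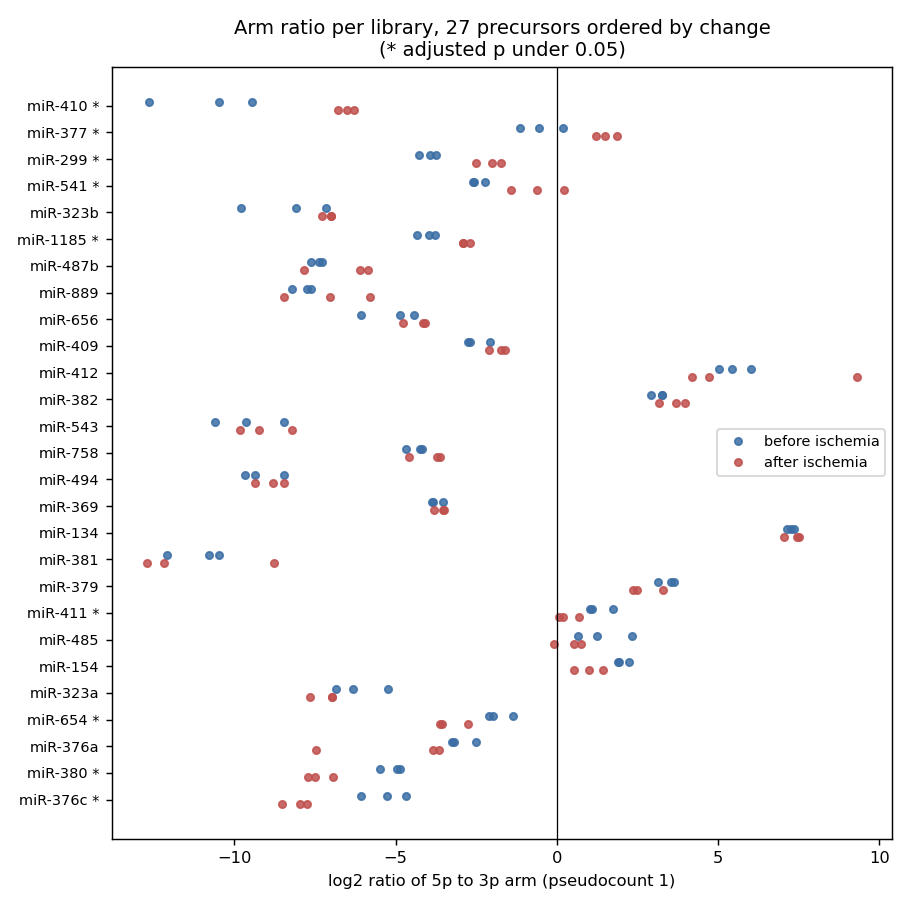
Log2 ratio of the 5p to the 3p arm in each library for the 27 precursors of the cluster with both arms measured, before (blue) and after ischemia (red), ordered by the change from −2.75 for miR-376c to 4.33 for miR-410; an asterisk marks an adjusted p under 0.05. Most ratios lie left of 0, where 3p is the larger arm, and miR-377 crosses from −0.50 to 1.53.

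Entries of near-identical sequence differed in course. The entry mmu-miR-300-3p_R-2 carries a mouse name, and the rhesus annotation held no gene named MIR300. Its 20 bases equal the first 20 of miR-381-3p but for A4G (positions from 1 at the 5′ end, the base of miR-381-3p first). Only the differing bases are in capitals here, to show how small the difference is.
mml-miR-381-3p: tatAcaAggGcaagctctctgt
mmu-miR-300-3p_R-2: tatGcaagggcaagctctct
ssc-miR-381-3p_1ss4AG: tatGcaaggAcaagctctctgt
cgr-miR-300_R-2_1ss7AG: tatGcaGgggcaagctctct
The substitution lies in the seed, which turns from ATACAAG to ATGCAAG.

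mmu-miR-300-3p_R-2 had 96.6, 116 and 63.9 normalized counts before and 77.2, 135 and 55.8 after ischemia, from 30 to 172 counts per library. Its groups overlapped, and the log2 fold change was −0.10 ± 0.528 (SE, adjusted p = 0.946, limma), against −3.57 for miR-381-3p. Its sign turned to 0.09 without replicate 2 before and to 0.19 without replicate 3 after ischemia.

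Of the counts of miR-381-3p and of the miR-300-3p entries together, those with G at base 4 were 0.204%, 0.198% and 0.119% before and 2.20%, 2.82% and 0.830% after ischemia. All libraries after ischemia lay above all before, and the means were 0.173 ± 0.0475% and 1.95 ± 1.02% (SD, n = 3 each, exact two-sided permutation p = 0.1, the smallest possible). This ratio was chosen after the values had been seen. The origin of these reads was not tested. The entries ssc-miR-381-3p_1ss4AG (A4G and G10A) and cgr-miR-300_R-2_1ss7AG (A4G and A7G) were listed only before ischemia, with at most 14 counts in a library. Both carry G at base 4 and were left out of the percentages above.

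In the miR-376 family, miR-376b-3p differs from miR-376a-3p by C19T (the base of miR-376a-3p first) within their common length and by a base more at the 3′ end, and miR-376c-3p differs from miR-376a-3p at base 2, in the seed, and at base 14 (A2T and T14A, here with the base of miR-376c-3p first). The sequences are shown with the differing bases in capitals.
mml-miR-376a-3p: aTcatagaggaaaAtccaCgt
mml-miR-376b-3p: atcatagaggaaaatccaTgtt
mml-miR-376c-3p: aAcatagaggaaaTtccacgt
The same-seed entry miR-376a-3p had 282, 432 and 294 normalized counts before and 175, 288 and 253 after ischemia, overlapping, with a log2 fold change of −0.49 (adjusted p = 0.496, limma). miR-376b-3p made up 17.9 ± 2.71% of both together before and 1.28 ± 2.22% after ischemia (SD, n = 3 each, exact two-sided permutation p = 0.1, the smallest possible), a ratio also chosen after the values had been seen. How reads were split between such entries by the authors' counting could change these values.

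Entries that share a seed did not move together throughout. Of the seed GGTGGGC, miR-541-3p had a log2 fold change of −2.18 and miR-654-5p one of −0.50. Of the seed TCATACA, cja-miR-539_1ss21CT had −1.43 and miR-485-3p 0.73. Of the seed TGGTTGA, miR-380-5p had −1.85 and miR-758-5p 0.997. miR-379-3p and miR-411-3p, of the seed ATGTAAC, had 0.40 and 0.07.

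The 4 entries of the seed GGTTGTC all lay above 0, with log2 fold changes of 1.21 for miR-323b-5p, 1.78 for miR-410-5p, 0.45 for miR-494-5p and 0.65 for miR-656-5p. None passed the threshold, with an adjusted p from 0.413 to 0.781 (limma). They were rare: miR-410-5p had 0, 4.03 and 11.3 normalized counts before and 8.27, 11.5 and 20.5 after ischemia, and miR-656-5p 51.4, 145 and 122 before and 131, 187 and 145 after ischemia. The groups overlapped in all 4.

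Base composition went with the fold change across members. Spearman's correlation of GC content and log2 fold change was 0.44 over the 68 tested members and 0.36 over the 49 of them with a mean of at least 100 normalized counts, and it was 0.02 over all 807 tested entries. The 8 members called lower had a median GC content of 38.6% (27.3% to 59.1%), the 6 without the miR-544 entries one of 42.3% (31.8% to 59.1%), and the 60 members not called one of 47.6% (23.8% to 71.4%). These are descriptions: the members share the same 6 libraries, and some share nearly their whole sequence.

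Members ending in T had a median log2 fold change of −0.59, with 33 of 43 below 0, and those ending in C one of 0.47, with 1 of 8 below 0. The 33 include the 3 members whose direction was fixed by the filter. Over all tested entries the medians were −0.15 and 0.06. The 13 members ending in G had a median of −0.33 and the 4 ending in A one of 0.41.

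**Figure D5:**
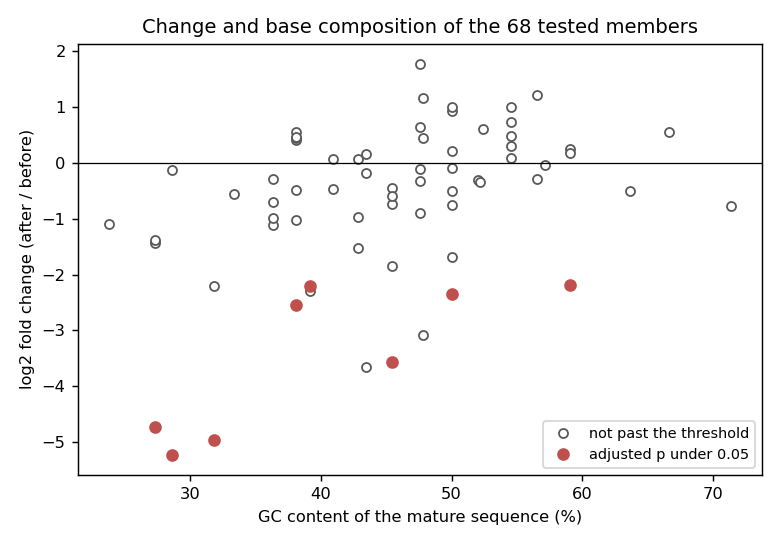
Log2 fold change after against before ischemia against the GC content (%) of the mature sequence for the 68 tested members, with red points for the 8 that passed the threshold. Members of low GC content lie lower on the whole (Spearman's correlation 0.44), and called members range from 27.3% to 59.1%.

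Of the 13 members not tested, 6 were listed at 0 in all libraries after ischemia, among them miR-495-5p with 13.2, 6.72 and 6.22 and miR-376a-2-5p with 3.90, 4.03 and 9.61 normalized counts before it. Against the mean of 3 counts in each library after ischemia (4.52 normalized counts), the mean before was 1.93 times as high for the former and 1.29 times for the latter. Replicates 1 and 2 of miR-376a-2-5p before ischemia lay below 4.52. cpo-miR-409-5p_R-3 and mmu-miR-654-3p_R+2 were listed at 0 in all libraries before ischemia and reached 7.69 and 6.89 after it. mmu-miR-496a-5p_L-1R+2_1ss7CT, with a substitution in the seed, had 6.23, 6.72 and 7.92 before and 16.5, 17.95 and 0 after ischemia. Pairs of entries with identical values, miR-329-1-5p and miR-329-2-5p among them, were counted separately. Altogether 64 of the 81 members were above 0 in all 6 libraries.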

How the data were processed

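Small RNA of 500 μl plasma was sequenced as single reads of 50 bp from 6 libraries of rhesus monkeys. The authors selected reads by length (18 to 26 nt), took out other ncRNA and assigned the rest to miRNAs with ACGT101-miR (genome build not given in the sources used here). They deposited normalized counts per entry, a signal on a linear scale. The largest step of each library's values that gave whole counts was taken as the worth of 1 count. It was 0.565 to 0.779 before and 1.28 to 1.86 after ischemia, and 84.0% to 86.9% of values were then whole within 0.01 counts, so no count model was used. The deposited table has 5 emptied lines, which are not reported here. Floors cover counting error only, while each SD and SE describes the spread between libraries.

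The groups were compared on log2(normalized count + 1) with limma 3.58.1 in R 4.3.3, with a variance trend, two-sided and without covariate, since the study's methods name no block. Entries needed 10 normalized counts in 3 libraries, and the Benjamini-Hochberg threshold was 0.05. For arm ratios, entries of an arm were summed, both sums had to reach 10 in 3 libraries, and the trend followed the level of the lower arm. Shares were compared with exact permutation tests in Python 3.11.15 with SciPy 1.17.1, NumPy 2.4.6 and pandas 2.3.3, and figures were drawn with Matplotlib 3.10.9. All exact permutation tests took the libraries as independent, without pairing by monkey. The fits were tested on simulated data.

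Members and lists were chosen with earlier results of these data known. Named with values were members past the threshold, the 10 most abundant, the 5 largest rises and falls that went the same way in 3 of 3 monkeys, members listed in the paper's results, arms of precursors whose ratio passed, members of shared seeds, and members with a substitution in the seed. miR-485-5p, miR-495-3p, miR-329-3p, miR-495-5p, miR-376a-2-5p, cpo-miR-409-5p_R-3, mmu-miR-654-3p_R+2 and the miR-329 5p entries were named after their values had been seen.

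Same-numbered samples were taken as the same monkey before and after ischemia, since the methods name 3 monkeys sampled at both times. Their deviations from the group means correlated at 0.182, 0.357 and 0.293, and those of other pairs at −0.402 to 0.137. The replicate block was an alternative. Other scalings, pseudocounts of 0.5 and 5, filters, no variance trend, merged or summed entries, an unequal-variance test per entry and left-out libraries were tried too.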

Additional observations from a re-analysis of the deposited data

How the results depend on the processing

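Against 8 members lower after ischemia, 5 were lower when all 6 libraries had to reach 10 normalized counts (miR-376b-3p and both miR-544 entries then go untested), and 18 were lower and 3 higher by the unequal-variance test without adjustment. Leaving out 1 library gave 4 to 8 lower members, 0 to 1 higher, 3 to 9 arm ratios and a difference of the cluster's share of −1.76 to −0.684. Without entries that reached the filter through 1 group alone, an alternative chosen after seeing the data, 6 were lower. The other alternatives gave 6 to 12 lower members, 0 higher and 6 to 11 arm ratios.

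With the replicate block 7 members were lower, since both miR-544 entries lost and cja-miR-539_1ss21CT gained the call, and 11 arm ratios differed against 9. The block changed no other call of a named member.

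Members near 0 changed sign. With the library total as scale, miR-134-5p had a log2 fold change of −0.14, miR-411-3p of −0.32 and miR-494-3p of −0.24. With 1 library left out, miR-411-3p ranged from −0.21 to 0.25, miR-494-3p from −0.19 to 0.46 and mmu-miR-300-3p_R-2 from −0.44 to 0.19, the sign turning without replicate 3 after ischemia for all 3 and without replicate 2 before ischemia for miR-411-3p (−0.10) and mmu-miR-300-3p_R-2 (0.09). Over named members and arm ratios, 718 values under an alternative kept their direction and their side of the threshold, 45 lost the threshold, 6 gained it and 8 changed sign. The cause was not tested.

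With 3 libraries a group, no exact permutation test can go below 0.1. A count was worth more normalized counts after than before ischemia, so the floor for entries listed at 0 was higher there.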
